A study of Arabidopsis thaliana with 8 samples.

Results

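The *TT2* overexpressor (*TT2* OE) was compared with the *MYB5* overexpressor (*MYB5* OE), gene by gene, in untreated Arabidopsis seedlings. The comparison took 5 of the 8 libraries of the series: N2 and Q2 are the 2 *MYB5* OE libraries, and the 3 *TT2* OE libraries are O2, R2 and U2. Of the 28494 genes in the count table other than the transgenes, 20380 passed a filter on low counts over all libraries and were tested. Both lines were made in the Col-0 accession and carry their MYB gene behind the CaMV 35S promoter, which is active in most tissues. The remaining 3 libraries are wild-type Col-0 (M2, P2 and S2), which carries no transgene, and their levels are given as background for many genes. All seedlings were harvested whole at 6 days, without stress, after growth at 22 °C in an 8 h photoperiod. The study made several independent lines per transgene; which of them was sequenced is not given in the sources used here, so a difference between these libraries belongs to the lines that were sequenced and cannot be told apart from a difference between the transcription factors.

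TT2 and MYB5 are related R2R3-MYB transcription factors of the seed coat. In developing seeds TT2 joins the bHLH protein TT8 and the WD40 protein TTG1 in an MBW complex that switches on the genes of proanthocyanidins, the flavonoid polymers that brown the seed coat, and MYB5 acts in the same pathway and in the making of seed coat mucilage. The study had linked both factors to heat stress resistance of seedlings, and sequenced RNA of both overexpressors and of Col-0. The genes that differ between the overexpressors are described here.

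**Figure D1:**
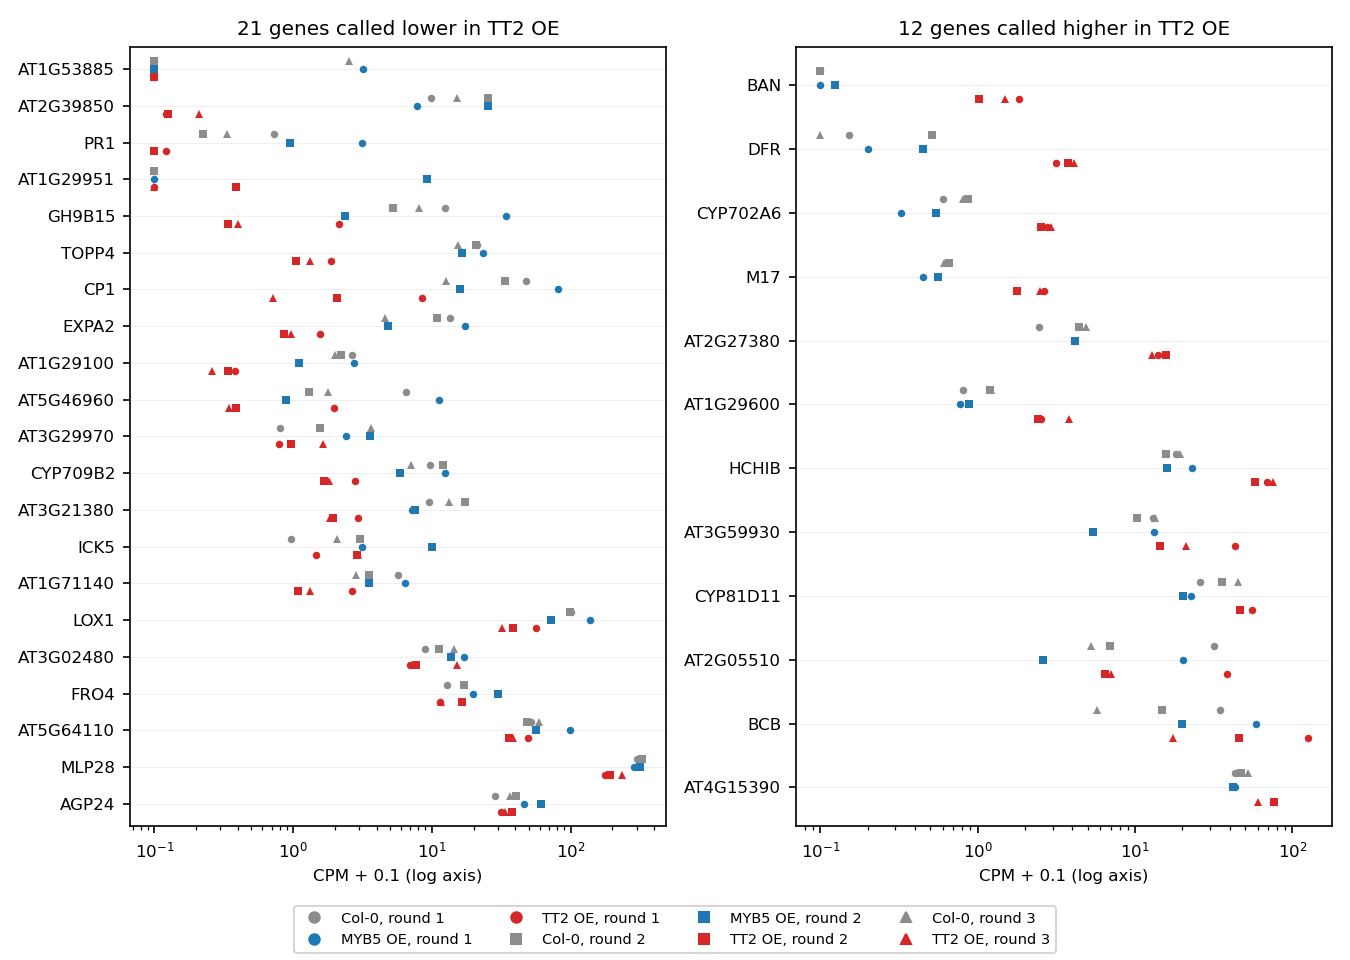
Transcript level (CPM + 0.1, log axis) of the 21 genes called lower (left) and the 12 called higher (right) in *TT2* OE than in *MYB5* OE, with 1 point per library; colour gives the genotype and shape the round. The *TT2* OE points of *HCHIB* sit between 57.8 and 75 CPM before the 0.1 was added, above both *MYB5* OE points, and those of *TOPP4* between 0.952 and 1.76 CPM, below both.

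Each line expressed its own transgene and not the other. Transcripts of *MYB5* stood at 281 and 252 CPM (counts scaled to a common library size) in the *MYB5* OE libraries and at no more than 0.106 CPM in the *TT2* OE libraries. Transcripts of *TT2* stood at 516, 466 and 516 CPM in *TT2* OE, and at 0.0751 and 0 CPM in *MYB5* OE. Both genes are left out of the counts that follow. Total counts ran from 35496351 to 48428855 per library.

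The libraries fall into rounds along the alphabetical order of their codes. Round 1 holds M2, N2 and O2, round 2 holds P2, Q2 and R2, and round 3 holds S2 and U2 but no *MYB5* OE library used here; the count table also holds a library T2, whose code falls in round 3 but which matches no sample in the labels and was not analysed here. No label names the rounds. After the genotype means were taken out, libraries of a round correlated by at least 0.733, and libraries of different rounds by at most 0.255. Circadian clock transcripts went with the rounds: the morning gene *LHY* stood at 1.25 CPM in N2 and 1.66 CPM in O2, at 332 in Q2 and 337 in R2, and at 984 in U2. The round was made a term of the model, a choice made with earlier results of these data known. The study names no such term. *TT2* OE was thus compared with *MYB5* OE within rounds 1 and 2, with U2 tied to them through S2.

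Adjusted p throughout comes from edgeR's quasi-likelihood test, with Benjamini-Hochberg adjustment over the genes tested and both transgenes together. With the round in the model, 33 genes differed between the lines at an adjusted p under 0.05, or 0.162% of the genes tested. Of them, 12 were higher in *TT2* OE (0.0589%) and 21 were lower (0.103%). At these shares most gene lists of the sizes used below would hold no call. Among the lower calls, that of AT3G02480 (adjusted p = 0.04995) hangs on the transgenes being part of the adjustment. Before adjustment, 436 genes had a p under 0.05 with the higher level in *TT2* OE (2.14%) and 359 with the lower level (1.76%). Together these are a smaller share than a threshold of 0.05 lets through when no gene differs. In 27 of the 33 the *TT2* OE libraries lay all on 1 side of both *MYB5* OE libraries, which was so for 7.85% of the genes tested: 10 lay above (4.47% of the genes tested) and 17 below (3.38%). The fitted difference was at least 2-fold in 27 of the 33 too, though not in all the same genes. The median log2 ratio of *TT2* OE to *MYB5* OE over all genes tested was 0.0059. The round term decided how much could be called. With genotype alone in the model only *TOPP4* passed, and 161 of the 20380 genes tested had an unadjusted p under 0.05. That share, too, is smaller than the threshold lets through when no gene differs. A fit of the 5 libraries with the round called 91 genes and DESeq2 called 62. Leaving out 1 library at a time gave from 12 calls (without O2, 2 higher and 10 lower) to 47 (without U2, 20 higher), with 21 without N2 (7 lower), 17 without R2 (9 lower) and 45 without S2 (20 higher). Of the 33 calls, 10 remained without N2, 11 without O2, 18 without Q2 and 15 without R2, and no gene among those tested changed direction. The calls of AT2G39850, *TOPP4*, *HCHIB*, *PR1*, *BCB* and *CP1* remained in all 8 of these fits.

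**Figure D2:**
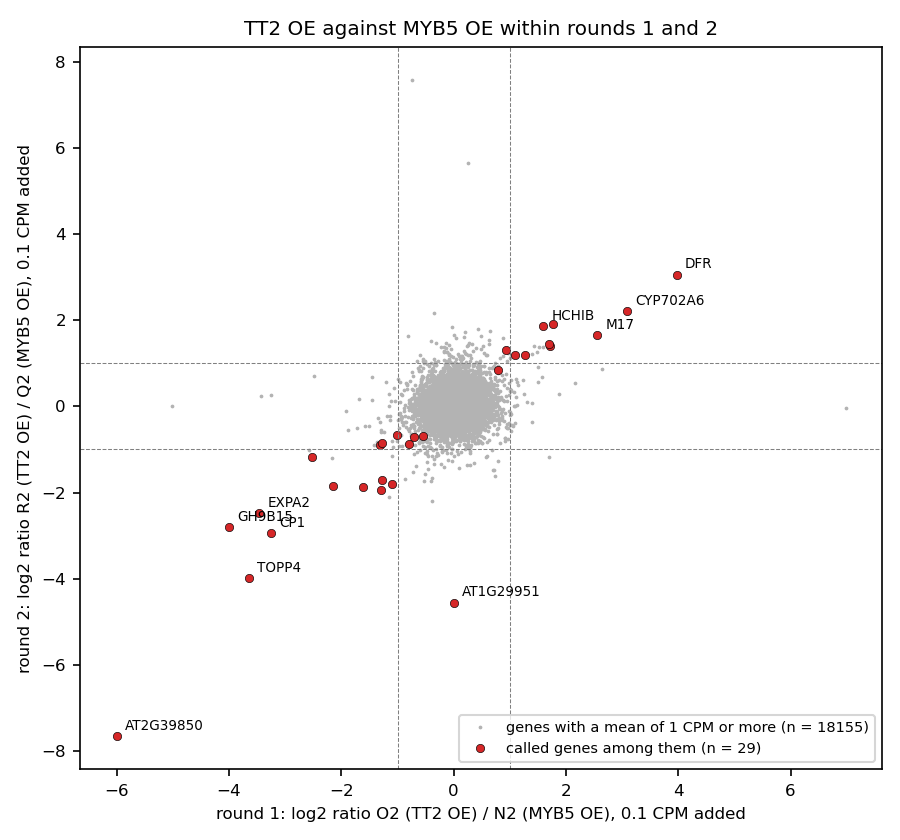
Ratio of *TT2* OE to *MYB5* OE within round 1 (O2 over N2, x axis) and within round 2 (R2 over Q2, y axis), as log2 with 0.1 CPM added, for 18155 genes with a mean of at least 1 CPM (grey) and the 29 called genes among them (red); dashed lines mark 2-fold. Of the 33 called genes, 31 had the same direction in both rounds, and AT1G29951 differed in round 2 alone. The calls come from a fit that includes these pairs, so this agreement is no separate check.

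Within the rounds, taken as 2 separate pairs of libraries, 16 genes were at least 2-fold higher in *TT2* OE in both pairs and 15 at least 2-fold lower, together 0.171% of the 18155 genes whose mean reached 1 CPM, and 1 gene was 2-fold apart in opposite directions. Past 2-fold in either direction were 97 genes in round 1 and 174 in round 2. Of the genes past 2-fold in both, 20 are among the 33 called. These counts fall to 7, 8 and 0 with 1 CPM added in place of 0.1.

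The proanthocyanidin genes *BAN* and *DFR* were higher in *TT2* OE. *BAN* encodes anthocyanidin reductase, the enzyme that commits the pathway to proanthocyanidins by making epicatechin, and *DFR* encodes dihydroflavonol reductase, an earlier step of the same branch. To show what lies before these genes, the 250 bases upstream of their transcription start are printed with the same stretch of *TT8*, the bHLH partner gene, which was not called (RefSeq, TAIR10.1 genome, each 5′ to 3′ on the strand of the gene, next to the start at the right end). Capitals mark 3 kinds of element searched on both strands, which can overlap: the MYB core (CNGTTA or CNGTTG or TNGTTA or TNGTTG), the AC-rich element of R2R3-MYB factors (ACCAAA or ACCAAC or ACCTAA or ACCTAC, and also CCCAAA or CCCAAC or CCCTAA or CCCTAC) and the E-box of bHLH factors (CANNTG).
BAN, chr1:22792804-22793053, minus strand: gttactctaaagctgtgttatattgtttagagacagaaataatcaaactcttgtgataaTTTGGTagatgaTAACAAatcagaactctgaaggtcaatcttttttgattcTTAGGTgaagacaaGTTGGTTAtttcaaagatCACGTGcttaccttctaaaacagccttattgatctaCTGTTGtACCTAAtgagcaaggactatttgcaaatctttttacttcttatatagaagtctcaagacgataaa
DFR, chr5:17166033-17166282, minus strand: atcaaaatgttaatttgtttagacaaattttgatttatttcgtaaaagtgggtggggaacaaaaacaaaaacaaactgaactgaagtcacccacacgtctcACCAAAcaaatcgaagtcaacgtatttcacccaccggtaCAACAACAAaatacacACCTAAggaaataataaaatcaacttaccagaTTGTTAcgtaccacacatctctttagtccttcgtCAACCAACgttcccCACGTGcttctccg
TT8, chr4:6181631-6181880, plus strand: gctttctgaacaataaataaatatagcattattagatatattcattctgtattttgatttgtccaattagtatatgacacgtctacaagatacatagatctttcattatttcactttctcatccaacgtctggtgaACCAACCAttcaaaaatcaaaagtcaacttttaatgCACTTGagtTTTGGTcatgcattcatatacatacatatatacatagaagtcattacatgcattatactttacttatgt

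The stretch of *BAN* held 3 MYB cores, 4 AC-rich elements and 1 E-box, that of *DFR* held 4, 3 and 1, and that of *TT8* held 1, 2 and 1. In *BAN* and *DFR* the E-box reads CACGTG, and in *TT8* it reads CACTTG. Such letters are common: of 20303 promoters of tested genes, 87.3% held a MYB core, 67.7% an AC-rich element and 56.3% an E-box. Among the 12 genes called higher in *TT2* OE the shares were 100%, 75% and 75%, and among the 20 called lower that have a promoter in the annotation they were 85%, 65% and 65%. The site II element that the study followed in *HSFA2* (ATGGGCC or ATGGGCT or TTGGGCC or TTGGGCT) was found before 19.8% of all tested genes, before 0 of the 12 higher genes and before 1 of the 20 lower genes. A match of letters is a description and not a binding site.

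*BAN* (chromosome 1, 22790966 to 22792803) was read 166 times in the 3 *TT2* OE libraries and 1 time in the *MYB5* OE libraries. Its level was 1.72, 0.926 and 1.38 CPM in O2, R2 and U2, 0 and 0.0232 CPM in N2 and Q2, and 0 in each Col-0 library. All *TT2* OE libraries were thus above all others, at levels that remained low. After scaling to depth, the ratio of the summed counts was 114 (20.2 to 4520, exact 95% interval, counting error only). The fit with the round gave a log2 ratio of 6.43 (SE 0.85, adjusted p = 0.0168). The call ended without N2 (adjusted p = 0.171), without O2 (0.341) or without R2 (0.0973).

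*DFR* (chromosome 5, 17164093 to 17166032) reached 3.03, 3.62 and 4.01 CPM in *TT2* OE, against 0.1 and 0.347 CPM in *MYB5* OE and 0.0526, 0.416 and 0 CPM in Col-0. The *TT2* OE libraries were again the highest, and *MYB5* OE lay within the range of Col-0. The fitted log2 ratio of *TT2* OE to *MYB5* OE was 4.16 (SE 0.64, adjusted p = 0.022). DESeq2 did not call *DFR*, and the call ended without N2 (adjusted p = 0.142), without O2 (0.251) or without Q2 (0.1). The ratio was 4.77 without Q2 and 5.92 without R2.

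**Figure D3:**
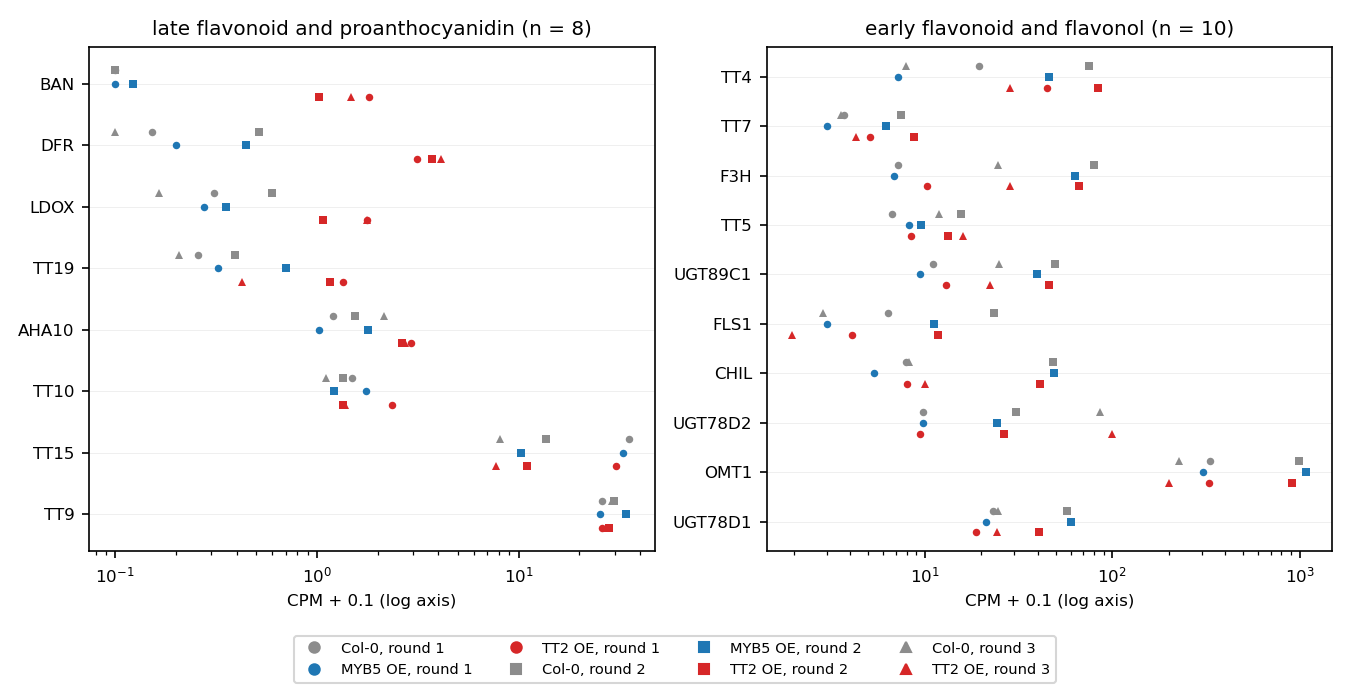
Transcript level (CPM + 0.1, log axis) of the 8 tested late flavonoid and proanthocyanidin genes (left) and the 10 tested early flavonoid and flavonol genes (right), with 1 point per library; colour gives the genotype and shape the round. *BAN*, *DFR* and *LDOX* have all *TT2* OE points right of the *MYB5* OE points, while *TT15* and *TT9* do not.

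*BAN* and *DFR* were the 2 called genes among 8 tested members of the late flavonoid and proanthocyanidin list, beside 0.162% of all genes tested. A further member of the list, the transporter gene *TT12*, was too low to test. The list had a median log2 ratio of 1.22, beside 0.0059 for all genes. At an unadjusted p under 0.05, 5 members were higher and 0 lower, beside 2.14% and 1.76% of all genes. *LDOX* encodes the oxygenase that makes anthocyanidins, the substrate of BAN. Its level was 1.68, 0.979 and 1.68 CPM in *TT2* OE and 0.175 and 0.255 CPM in *MYB5* OE, with no overlap. The log2 ratio of 2.87 (SE 0.65) did not pass the threshold (adjusted p = 0.234). *AHA10*, the proton pump that drives transport of proanthocyanidin precursors into the vacuole, stood at 2.82, 2.54 and 2.63 CPM in *TT2* OE and at 0.926 and 1.69 CPM in *MYB5* OE, which is a log2 ratio of 0.96 (SE 0.30, adjusted p = 0.819). *TT9*, *TT10* and *TT15*, which are needed later for the storage and browning of the polymer, had overlapping levels in the lines. The same was so for *TT19*, the remaining tested member. Of the 8, 4 were at least 2-fold apart in the fit: *BAN*, *DFR*, *LDOX* and a member with overlapping levels. The member not named above with an unadjusted p under 0.05 also had overlapping levels.

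Among the early genes, which make the precursors common to all flavonoids, none of 10 tested passed, beside 0.162% of all genes tested. At an unadjusted p under 0.05, 4 were higher in *TT2* OE and 1 was lower, beside 2.14% and 1.76% of all genes. The list's median log2 ratio was 0.28. *TT4*, the chalcone synthase gene at the entry of the pathway, came nearest, with 44.6, 84.4 and 28.3 CPM in *TT2* OE and 7.11 and 46.1 CPM in *MYB5* OE. Within round 1 O2 was above N2 by a log2 ratio of 2.63, and within round 2 R2 was above Q2 by 0.87, while over all libraries the lines overlapped. The fitted log2 ratio was 1.90 (SE 0.34, adjusted p = 0.054). *TT7*, which hydroxylates the B ring, had a log2 ratio of 0.63 (SE 0.16, adjusted p = 0.465), and *FLS1*, the flavonol synthase gene of the competing branch, 0.28 (SE 0.16, adjusted p = 1).

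None of 11 tested partners and regulators of the complex was called, beside 0.162% of all genes tested. *TT8* stood at 0.366, 0.609 and 0.433 CPM in *TT2* OE and at 0.401 and 0.811 CPM in *MYB5* OE, and at 0.0789, 0.0208 and 0.0641 CPM in Col-0. The lines overlapped and both lay above the wild type. The log2 ratio of *TT2* OE to *MYB5* OE was -0.34, with a 95% interval from -1.42 to 0.75 and an adjusted p of 1. The log2 ratio to Col-0 was 3.08 in *TT2* OE (adjusted p = 0.0294) and 3.42 in *MYB5* OE (adjusted p = 0.0714), from the same Col-0 libraries. *TTG1* had a log2 ratio of 0.20 (interval -0.01 to 0.42) between the lines, *TTG2*, a WRKY gene downstream of the complex, 0.53 (0.06 to 0.99) and *PAP1*, the MYB gene of anthocyanin synthesis, 0.30 (-0.92 to 1.51), each with an adjusted p of 1. None of 5 anthocyanin decoration genes, 7 epidermal patterning genes or 12 seed coat mucilage genes was called; their median log2 ratios were -0.09, -0.07 and -0.07.

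A pair of neighbouring genes on chromosome 2 had the calls with the smallest p, and both were lower in *TT2* OE. *TOPP4* (AT2G39840, 16627216 to 16629412, plus strand) encodes a catalytic subunit of a type 1 protein phosphatase, which acts in gibberellin and light signalling. Its level was 23.2 and 16.5 CPM in *MYB5* OE (19.8 ± 4.75, SD, n = 2) and 1.76, 0.952 and 1.22 CPM in *TT2* OE (1.31 ± 0.414, SD, n = 3). Every *TT2* OE library was below every *MYB5* OE library, which lay at the level of Col-0 (21.1, 20.7 and 15.4 CPM). The log2 ratio was -3.79 (SE 0.18, adjusted p = 3.41e-07). Over all alternatives tried, *TOPP4* lost its call only where the 5 libraries were fitted with no round term.

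AT2G39850, which encodes a subtilisin-like protease, starts 998 bases after the end of *TOPP4* on the same strand (16630411 to 16634253). Its level was 7.66 and 25.4 CPM in *MYB5* OE, and 0.0215, 0.0265 and 0.108 CPM in *TT2* OE. These *TT2* OE levels stand for 6 counts in 3 libraries, and the levels in Col-0 were 9.71, 25.5 and 15.1 CPM. The fitted log2 ratio was -8.15 (SE 0.30, adjusted p = 2.11e-08), the lowest p of the comparison. With so few counts the ratio moved to -7.42 without R2, -9.16 without S2 and -9.17 without U2, with no loss of the call. Of the 12 genes on each side of *TOPP4*, 16 others were tested and none was called: their log2 ratios ran from -0.82 to 0.14, with a median of -0.05.

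**Figure D4:**
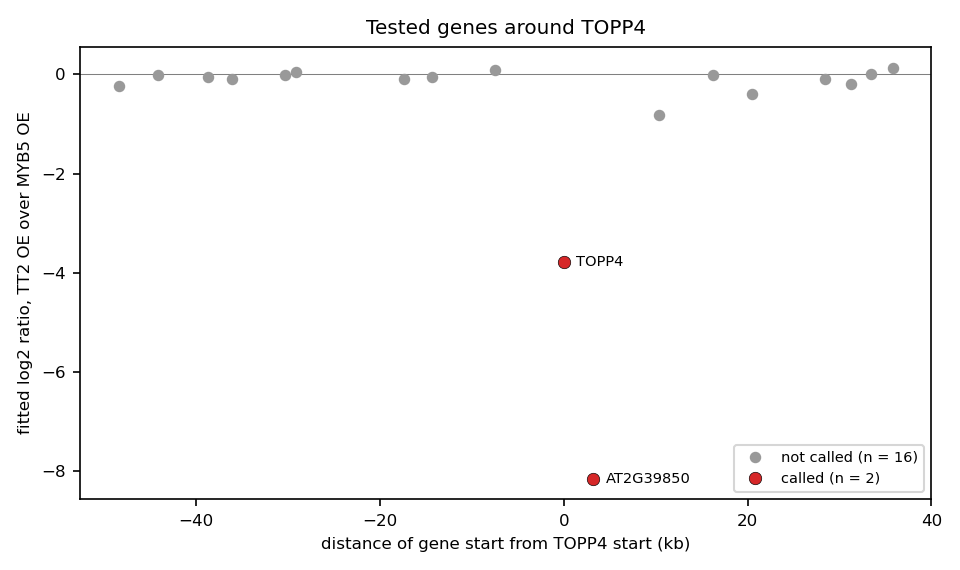
Fitted log2 ratio of *TT2* OE to *MYB5* OE (y axis) for the tested genes around *TOPP4*, by the distance of their start from the start of *TOPP4* in kb (x axis). The 2 called genes, *TOPP4* at -3.79 and AT2G39850 at -8.15, stand below 16 neighbours between -0.82 and 0.14.

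*HCHIB*, higher in *TT2* OE (AT3G12500, chromosome 3, 3962136 to 3963984), encodes a basic chitinase, a secreted enzyme that cuts the chitin of fungal walls and is induced through ethylene and jasmonate. Its level was 69.1, 57.8 and 75 CPM in *TT2* OE (67.3 ± 8.72, SD, n = 3) and 22.9 and 15.8 CPM in *MYB5* OE (19.3 ± 5.01, SD, n = 2). The *MYB5* OE libraries were at the level of Col-0 (17.7 ± 1.84 CPM, SD, n = 3) and apart from every *TT2* OE library. *HCHIB* was 3.34-fold higher in *TT2* OE (log2 ratio 1.74, SE 0.11, adjusted p = 1.08e-05). A gene model that overlaps it, AT3G12502, had 0 counts in every library.

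*PR1*, the secreted protein whose transcripts mark salicylate responses, was close to absent in *TT2* OE, with 0.0215 CPM in O2 and 0 in R2 and U2. It stood at 3.03 and 0.857 CPM in *MYB5* OE and at 0.631, 0.125 and 0.235 CPM in Col-0. All libraries of *MYB5* OE were above those of Col-0, and all of *TT2* OE below. There were 158 counts in *MYB5* OE and 1 in *TT2* OE, a ratio of 230 after scaling to depth (40.7 to 9150, exact 95% interval, counting error only). The fit with the round gave a log2 ratio of *TT2* OE to *MYB5* OE of -7.38 (SE 0.69, adjusted p = 0.000581). *PR1* was the only call among 16 tested salicylate and camalexin genes, beside 0.103% of all genes called lower. At an unadjusted p under 0.05, 4 members were lower and 0 higher, beside 1.76% and 2.14% of all genes. The 4 lower members include *FMO1*, the N-hydroxypipecolate synthase (log2 ratio -1.38, SE 0.50), and *ICS1*, the isochorismate synthase that makes salicylate (-0.27, SE 0.12), each with an adjusted p of 1. The list's median was -0.08.

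Other genes tied to defence or detoxification that were higher in *TT2* OE are *CYP81D11*, a cytochrome P450 gene induced by jasmonate and foreign chemicals, and AT3G59930, a defensin-like gene. *CYP81D11* stood at 54.9, 46.1 and 46.3 CPM in *TT2* OE and at 22.7 and 20.03 CPM in *MYB5* OE. Here the lines were apart and Col-0 lay between them (25.8, 35.6 and 45.3 CPM), with a log2 ratio of 1.13 (SE 0.19, adjusted p = 0.0327). AT3G59930 stood at 43.1, 14.2 and 20.9 CPM in *TT2* OE and at 13 and 5.33 CPM in *MYB5* OE (log2 ratio 1.52, SE 0.23, adjusted p = 0.0198). It shares 27.8% of its 31-base words with AT5G33355, so its counts may hold reads of that gene. The call of *CYP81D11* ended without N2, O2, Q2 or R2 (adjusted p from 0.107 to 0.253), and that of AT3G59930 without N2, O2 or Q2 (from 0.106 to 0.204).

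Lower in *TT2* OE were *LOX1*, *MLP28* and AT3G21380. *LOX1* encodes a lipoxygenase that makes 9-hydroperoxides of fatty acids, apart from the jasmonate pathway. It stood at 56, 38.5 and 31.8 CPM in *TT2* OE and at 139 and 71.8 CPM in *MYB5* OE, with Col-0 at 101, 98.4 and 98.2 CPM. The *TT2* OE libraries were the lowest of all, with a log2 ratio of -1.20 (SE 0.17, adjusted p = 0.0141). *MLP28*, of the major latex protein family, had 176, 193 and 234 CPM against 286 and 317 CPM, a small difference without overlap (log2 ratio -0.65, SE 0.11, adjusted p = 0.0414). AT3G21380, a mannose-binding lectin gene, had 2.82, 1.85 and 1.76 CPM against 7.08 and 7.43 CPM (log2 ratio -1.69, SE 0.26, adjusted p = 0.0198), and here Col-0 was the highest, with 9.5, 17.37 and 13.2 CPM. The call of *LOX1* ended without N2 (adjusted p = 0.169), O2 (0.0634) or R2 (0.081), that of AT3G21380 without N2 (0.154) or R2 (0.177), and that of *MLP28* without M2, N2, O2, Q2 or R2 (from 0.0721 to 0.601).

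*EXPA2*, which was lower in *TT2* OE, encodes an expansin, a protein that loosens cell walls and is known for its part in seed germination. It stood at 17.1 and 4.7 CPM in *MYB5* OE, at 1.46, 0.767 and 0.867 CPM in *TT2* OE, and at 13.4, 10.9 and 4.47 CPM in Col-0. The *TT2* OE libraries lay below all others (log2 ratio -2.95, SE 0.35, adjusted p = 0.00391), and the call ended without O2 (adjusted p = 0.0647). Without N2 the log2 ratio was -2.12. It was the only call among 14 tested expansins, beside 0.162% of all genes tested. Of the 14, 6 had a log2 ratio above 0 and 8 below, with a median of -0.11.

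*CP1*, a papain-like cysteine protease gene, had a wide range over the rounds: 81.6 and 15.9 CPM in *MYB5* OE, 8.44, 1.98 and 0.623 CPM in *TT2* OE, and 47.8, 33.3 and 12.6 CPM in Col-0. Within each round *TT2* OE was below its partners, by a log2 ratio of -3.26 in round 1 and -2.94 in round 2 against *MYB5* OE, and the fitted ratio was -3.23 (SE 0.34, adjusted p = 0.0013), or -2.51 without N2. *GH9B15*, of the endoglucanase family that cuts cellulose-like glucans, also varied over the rounds, with 34.2 and 2.27 CPM in *MYB5* OE, 2.04, 0.238 and 0.298 CPM in *TT2* OE, and 12.3, 5.13 and 7.99 CPM in Col-0. N2 was far above the other libraries there. The log2 ratio of -3.93 (SE 0.49, adjusted p = 0.0061) became -2.46 without N2 (adjusted p = 0.135), and without O2 the adjusted p was 0.0523. AT4G23550 overlaps *GH9B15*, and their reads may be split between them.

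AT5G46960, of the inhibitors of invertase and pectin methylesterase, stood at 11.2 and 0.787 CPM in *MYB5* OE and at 1.87, 0.291 and 0.244 CPM in *TT2* OE. The lines overlapped over the rounds but not within them, and the log2 ratio was -2.37 (SE 0.33, adjusted p = 0.0114). Without N2 it was -1.45 (adjusted p = 0.476), and without O2 the adjusted p was 0.227. AT5G64110, a class III peroxidase gene, and *AGP24*, a short arabinogalactan protein gene, were lower as well, with log2 ratios of -0.90 (SE 0.14, adjusted p = 0.0265) and -0.64 (SE 0.10, adjusted p = 0.0309). On average *MYB5* OE stood above Col-0 in both (77.4 against 53.2 CPM and 53.3 against 35.1 CPM), and *TT2* OE had 41 and 34.2 CPM. For AT5G64110 N2 had 98.6 CPM, but Q2 (56.3 CPM) lay within the range of Col-0, where S2 had 58.98 CPM. The log2 ratio of *MYB5* OE to Col-0 was 0.51 for AT5G64110 (adjusted p = 0.258) and 0.61 for *AGP24* (adjusted p = 0.0452). The call of AT5G64110 ended without N2, O2 or R2 (adjusted p from 0.145 to 0.324) and that of *AGP24* without M2, N2, O2, Q2 or R2 (from 0.068 to 0.499).

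*ICK5*, also known as *KRP7*, encodes an inhibitor of cyclin-dependent kinases that holds back the cell cycle. It stood at 3.03 and 9.91 CPM in *MYB5* OE and at 1.36, 2.78 and 2.84 CPM in *TT2* OE, where Col-0 had 0.868, 2.93 and 1.99 CPM. Here *MYB5* OE was the line that stood apart from Col-0 (log2 ratio 1.81, adjusted p = 0.00884), and *TT2* OE had a log2 ratio to the same Col-0 libraries of 0.33 (adjusted p = 0.553). Between the lines the log2 ratio was -1.48 (SE 0.22, adjusted p = 0.0176), and the call ended without N2 (0.056), Q2 (0.397) or R2 (0.32).

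The wall protein gene that was higher in *TT2* OE is AT2G27380, a proline-rich extensin. It stood at 13.8, 15.6 and 12.6 CPM in *TT2* OE, at 3.98 and 4.08 CPM in *MYB5* OE, and at 2.34, 4.28 and 4.79 CPM in Col-0. The *TT2* OE libraries were close to each other and above all others, with a log2 ratio of 1.76 (SE 0.22, adjusted p = 0.0061). The call ended without O2, Q2 or R2 (adjusted p from 0.0584 to 0.0706).

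On chromosome 4, 2 called genes lie near each other, and both were higher in *TT2* OE. *CYP702A6* (8807483 to 8810512) is a cytochrome P450 gene of a family that occurs in triterpene gene clusters. Its level was 2.65, 2.41 and 2.84 CPM in *TT2* OE and 0.225 and 0.44 CPM in *MYB5* OE, without overlap, and 0.5, 0.769 and 0.705 CPM in Col-0. The log2 ratio was 2.94 (SE 0.36, adjusted p = 0.00585), and the call ended without N2 (0.065) or O2 (0.0523). AT4G15390, an acyltransferase gene that ends 13040 bases before *CYP702A6*, stood at 74.9, 75.7 and 60.5 CPM in *TT2* OE and 43.1 and 42.1 CPM in *MYB5* OE (log2 ratio 0.74, SE 0.13, adjusted p = 0.0468). Its call ended without N2, O2, P2, Q2 or R2 (adjusted p from 0.0509 to 0.601). Of the 12 genes on each side of *CYP702A6*, 19 others were tested, and their log2 ratios ran from -0.81 to 1.04 with a median of -0.05. The third called P450 gene besides *CYP81D11*, *CYP709B2*, was lower in *TT2* OE, with 2.71, 1.56 and 1.71 CPM against 12.3 and 5.84 CPM (log2 ratio -1.98, SE 0.27, adjusted p = 0.0114); its call ended without N2, O2 or R2 (adjusted p from 0.0759 to 0.152).

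*M17*, a gene of late embryogenesis abundant proteins that accumulate in drying seeds, stood at 2.54, 1.67 and 2.38 CPM in *TT2* OE, at 0.35 and 0.463 CPM in *MYB5* OE, and at 0.526, 0.561 and 0.513 CPM in Col-0. The *TT2* OE libraries were above all others (log2 ratio 2.38, SE 0.36, adjusted p = 0.0198). The call ended without N2 (0.247), O2 (0.247) or Q2 (0.0518). It was the only call among 8 tested genes of the seed storage and maturation list, beside 0.162% of all genes tested. In that list 12 of 20 members, among them most storage protein genes, were too low to test. The summed level of the 8 was 17.1, 14.3 and 21.1 CPM in O2, R2 and U2 and 16 and 13.7 CPM in N2 and Q2. Another late embryogenesis abundant gene, AT3G02480, had the opposite direction, with 6.89, 7.57 and 15 CPM in *TT2* OE and 16.9 and 13.7 CPM in *MYB5* OE. Its call, at the edge of the threshold, hangs on both transgenes being part of the adjustment. U2 lay between the *MYB5* OE libraries there, the log2 ratio was -0.99 (SE 0.17, adjusted p = 0.04995), and the call ended without M2, N2, O2 or R2 (adjusted p from 0.128 to 0.485).

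*BCB*, a copper protein gene of the plastocyanin type, differed more between rounds than between the lines. It stood at 125 CPM in O2 and 58.5 in N2, at 45.3 in R2 and 19.7 in Q2, and at 17.3 in U2, while Col-0 had 34.5, 14.6 and 5.66 CPM. The *TT2* OE library was thus the higher one in each round with both lines, and the lines overlapped only across rounds. The log2 ratio was 1.12 (SE 0.11, adjusted p = 0.000821). AT2G05510, a glycine-rich protein gene, also went with the rounds, with 38.4 against 20.1 CPM in round 1, 6.32 against 2.5 CPM in round 2 and 6.93 CPM in U2 (log2 ratio 1.13, SE 0.17, adjusted p = 0.0193). Against Col-0 (31.7, 6.88 and 5.15 CPM) AT2G05510 had -0.94 in *MYB5* OE (adjusted p = 0.0577) and 0.19 in *TT2* OE (adjusted p = 0.639). Its call ended without O2, Q2 or R2 (adjusted p from 0.085 to 0.158). AT1G29600, a zinc finger protein gene, was the last of the 12 higher genes, with a log2 ratio of 1.75 (SE 0.30, adjusted p = 0.0435) and levels of 2.41, 2.3 and 3.71 CPM in *TT2* OE against 0.676 and 0.787 CPM in *MYB5* OE. That call remained without P2 alone, and the other 7 fits that left out a library gave an adjusted p from 0.0542 to 0.319.

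Lower in *TT2* OE were also *FRO4*, AT1G29100, AT1G71140 and AT3G29970. *FRO4*, a ferric and cupric reductase of the root surface, stood at 11.3, 16.3 and 11.5 CPM in *TT2* OE and 19.7 and 29.7 CPM in *MYB5* OE (log2 ratio -0.91, SE 0.13, adjusted p = 0.0114). AT1G29100, of a family of heavy metal binding proteins, stood at 0.28, 0.238 and 0.163 CPM and 2.63 and 0.996 CPM (log2 ratio -2.80, SE 0.39, adjusted p = 0.0114). AT1G71140, a MATE efflux transporter gene, stood at 2.54, 0.979 and 1.22 CPM and 6.26 and 3.43 CPM (log2 ratio -1.45, SE 0.21, adjusted p = 0.0168). In these genes the lines did not overlap. *FRO4* stood at 12.8, 17 and 16.8 CPM in Col-0. Its log2 ratio to Col-0 was 0.64 in *MYB5* OE (adjusted p = 0.0826) and -0.26 in *TT2* OE (adjusted p = 0.342). AT3G29970, which encodes a B12D protein, had a log2 ratio of -2.03 (SE 0.28, adjusted p = 0.0114), with 0.689, 0.873 and 1.54 CPM in *TT2* OE and 2.3 and 3.47 CPM in *MYB5* OE. Against Col-0 (0.71, 1.45 and 3.53 CPM) it had 1.29 in *MYB5* OE (adjusted p = 0.106) and -0.74 in *TT2* OE (adjusted p = 0.225). The calls ended without N2, O2, Q2 or R2 for *FRO4* (adjusted p from 0.0542 to 0.113) and AT1G71140 (from 0.0734 to 0.152), without N2 (0.175, log2 ratio -2.15) or O2 (0.145) for AT1G29100, and without N2, Q2 or R2 for AT3G29970 (from 0.085 to 0.0977). *FRO4* shares 11.8% of its 31-base words with AT5G23990, and AT5G46960, described above, 11% with AT5G46950.

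In 2 further called genes the difference came from a single library. AT1G53885, annotated with a domain of unknown function, had 124 counts in N2 (3.1 CPM), 0 in Q2 and 0 in all *TT2* OE libraries. Col-0 was just as uneven, with 2.42 CPM in S2 and 0 in M2 and P2, and without N2 the adjusted p was 1. Its 31-base words are all shared with AT1G53903, so reads cannot be assigned between them and the call is uncertain. AT1G29951, which has no model in the annotation used here, had 9.1 CPM in Q2, 0 in N2, 0.291 CPM in R2 and 0 in O2, U2 and every Col-0 library (fitted log2 ratio -4.94, SE 0.55, adjusted p = 0.0114). Without Q2 or without R2 it did not pass the filter on counts. DESeq2 called neither.

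Heat stress was the subject of the study. None of 19 heat shock factors and stress regulators was called, with a median log2 ratio of 0.11, and none of 19 heat-induced chaperones, with a median of 0.04. Over all genes tested 0.162% were called, so lists of this size would usually hold none. *HSFA2*, the factor that prolongs heat tolerance, stood at 0.237, 3.89 and 2.11 CPM in *TT2* OE and at 0.451 and 3.27 CPM in *MYB5* OE. The lines overlapped, and O2 was below N2 while R2 was above Q2. The log2 ratio of 0.16 had a 95% interval from -0.63 to 0.95, and its sign changed with the model. The intervals were -0.30 to 0.51 for *HSFA3*, -0.17 to 0.34 for *HSFA7A*, and -0.46 to 0.12 for *MBF1C*, a transcriptional coactivator of the heat response. At an unadjusted p under 0.05, *HSFA1E* was the only factor (log2 ratio 0.48) and *HSP18.2*, a small heat shock protein gene, the only chaperone gene (-0.85), each with an adjusted p of 1.

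Jasmonate genes had log2 ratios above 0, but none was called, beside 0.162% of all genes tested. Ratios above 0 held for all 18 tested members of the list, and for 10581 of the 20380 genes. The list's median was 0.18, with 16 members above 0 in round 1 and 11 in round 2. Higher at an unadjusted p under 0.05 were 4 members, beside 2.14% of all genes. *VSP1*, a vegetative storage protein gene that marks the jasmonate response, came nearest: it stood at 3.27, 3.62 and 3.93 CPM in *TT2* OE and at 1.3 and 1.55 CPM in *MYB5* OE. The lines did not overlap, Col-0 lay with *MYB5* OE (1.05, 1.37 and 1.26 CPM), and the log2 ratio was 1.29 (SE 0.23, adjusted p = 0.054). *JAZ9*, a repressor of jasmonate signalling, had a log2 ratio of 0.40 (SE 0.11, adjusted p = 0.488), and *LOX2*, a lipoxygenase of jasmonate synthesis, 0.58 (SE 0.20, adjusted p = 0.96).

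**Figure D5:**
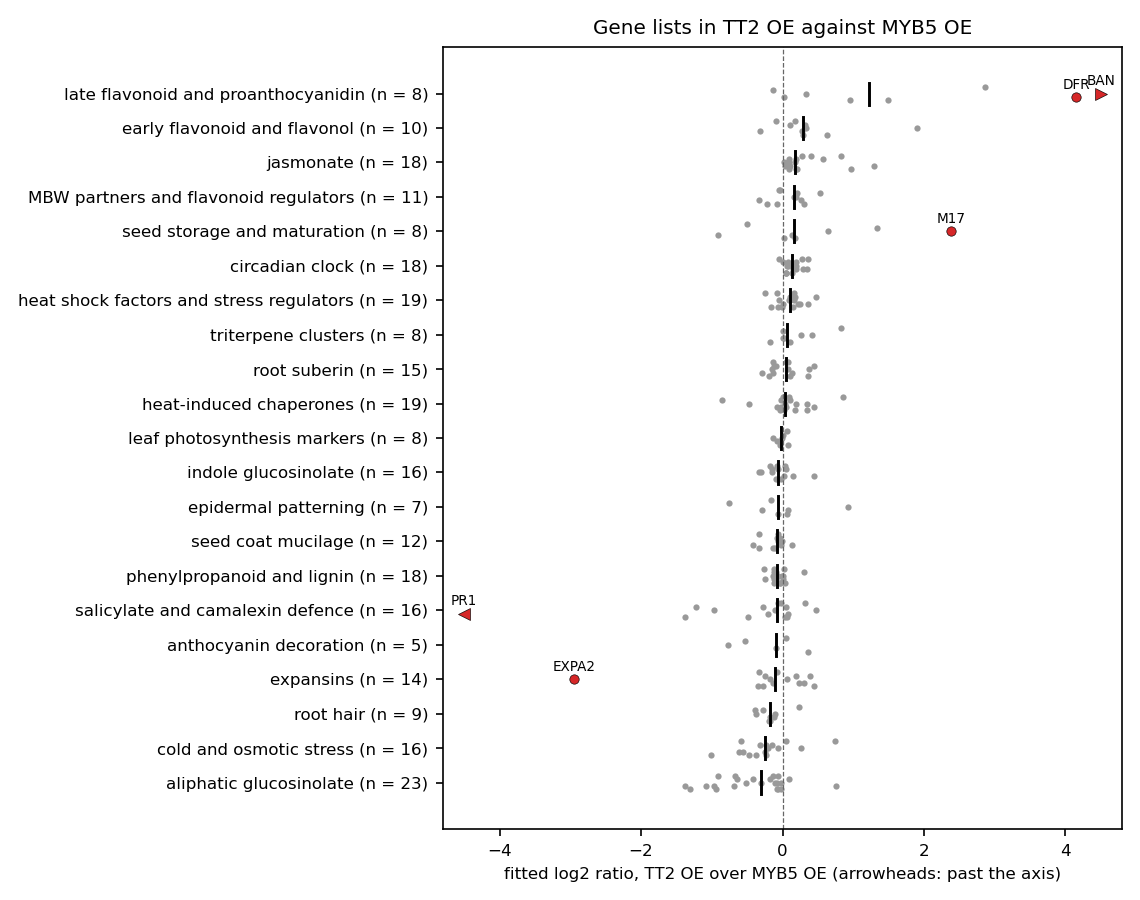
Fitted log2 ratio of *TT2* OE to *MYB5* OE (x axis) of the tested members of 21 gene lists (rows, ordered by median); grey points were not called, red points were, black bars mark the median of a list, the dashed line that of all genes (0.0059), and arrowheads stand for *BAN* at 6.43 and *PR1* at -7.38. The median runs from -0.30 in aliphatic glucosinolate genes to 1.22 in late flavonoid and proanthocyanidin genes, and 5 genes of the lists were called.

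Aliphatic glucosinolate genes, which make sulfur-rich defence compounds from methionine, had fitted log2 ratios mostly below 0, in 21 of 23 tested, with a median of -0.30; 9799 of the 20380 genes tested were below 0. The rounds differed: in round 2, 21 members were below 0 (median -0.39), while in round 1, 12 were above 0 and 11 below (median 0.04). None was called, beside 0.162% of all genes tested, and 5 were lower at an unadjusted p under 0.05, beside 1.76% of all genes. *CYP83A1*, a P450 of the core pathway, stood at 0.775, 2.57 and 1 CPM in *TT2* OE, at 1.5 and 8.52 CPM in *MYB5* OE, and at 0.316, 0.519 and 0.171 CPM in Col-0. Both lines lay above Col-0, *MYB5* OE more so, and they overlapped across the rounds. The log2 ratio between the lines was -1.38 (SE 0.31, adjusted p = 0.243); against the same Col-0 libraries it was 2.12 in *TT2* OE (adjusted p = 0.0122) and 3.50 in *MYB5* OE (adjusted p = 0.00321). *MAM1*, which elongates the side chain, had -1.30 (SE 0.40, adjusted p = 0.772) between the lines. Indole glucosinolate genes had a median of -0.06 with 0 of 16 called; *CYP81F4*, which modifies the indole ring, had a log2 ratio of 0.44 (SE 0.09, adjusted p = 0.166).

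No marker gene of the leaf or the root was called, beside 0.162% of all genes tested. Leaf photosynthesis genes (8 tested) had a median log2 ratio of -0.02, root suberin genes (15) 0.04 and root hair genes (9) -0.17. The summed level of the photosynthesis genes was 55990, 66410 and 58400 CPM in O2, R2 and U2 and 59610 and 66120 CPM in N2 and Q2. In whole seedlings a lower level may come from fewer cells of a type or from less RNA per cell, which cannot be told apart. Circadian clock genes had a median of 0.13, with 17 of 18 above 0 and none called. Above 0 were 12 of them in round 1 and 16 in round 2, and 10581 of the 20380 genes tested had a fitted ratio above 0. The 32 called genes with a model in the annotation are spread over the chromosomes, with 8, 7, 6, 4 and 7 on chromosomes 1 to 5.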

How the data were processed

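RNA was taken from whole seedlings, and the authors made strand-specific libraries (NEBNext Ultra Directional kit), sequenced them on a NextSeq 500 and counted reads per gene against TAIR10 with CLC Genomics Workbench 10. The deposited table holds whole-number counts per gene and library, which were used as they stand; 24 normalised columns and 4 columns of a library (T2) that matches no sample, although its code would place it in the round without a *MYB5* OE library, were not used. All 8 libraries entered 1 fit in edgeR 4.0.16 (R 4.3.3, limma 3.58.1), with filterByExpr by genotype and TMM factors (0.932 to 1.06). The model was genotype plus round (residual degrees of freedom 3), with the quasi-likelihood F-test of *TT2* OE minus *MYB5* OE. Benjamini-Hochberg adjustment ran over 20382 genes, both transgenes among them. CPM values are scaled by total count and TMM factor and carry no length. DESeq2 1.42.0 was an alternative. The code was tested on simulated data. The round was read from the library codes and stands for the pairing of libraries: every pair of libraries of a round had a residual correlation of at least 0.733, and the common dispersion was 0.0107 with the round term and 0.13 without it. The study states that the plants of each genotype came from 3 independent biological replicates. Labels do not say whether the rounds stand for these, or whether libraries of a line came from separate sowings. The p-values thus measure the spread between these libraries, and intervals of count ratios cover counting error only. No 2 libraries were duplicates.

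Of 28496 genes in the table, 28009 were found in the RefSeq annotation of TAIR10.1, which gave coordinates and promoters; lists of called genes by chromosome come from it. Genes were named by rule: those the study names in its flavonoid and heat results, up to 15 called genes in each direction, by size of change, whose mean reached 1 CPM and whose libraries stood apart in the direction of the call in both rounds, and up to 4 members of each of 21 gene lists with the smallest p. The remaining called genes (among them *AGP24*, *MLP28*, AT1G29100, AT1G53885 and AT1G29951) were named after their values were seen, so that every called gene is described. The comparison, its members, the lists and the round term were chosen with earlier results of these data known.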

Additional observations from a re-analysis of the deposited data

How the results depend on the processing

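The calls rest on the round term. The replicate block by round gave 33 genes (12 higher and 21 lower in *TT2* OE). Without the block, genotype alone in the model gave 1 (0 higher, 1 lower), and the 5 libraries of the lines gave 0 (0 higher, 0 lower). In the latter, 120 of 20148 genes had an unadjusted p under 0.05, a smaller share than that threshold lets through when no gene differs. The 5 libraries with the block gave 91 (48 and 43), rounds 1 and 2 alone 48 (22 higher), DESeq2 62 (32 higher), the likelihood ratio test 109 (63 and 46), no filter on counts 51 (24 higher) and a minimum fold of 1.5 gave 18 (6 and 12). Other size factors gave 37 calls and leaving out a stretch of chromosome 5 gave 34. Leaving out 1 library at a time gave 12 to 47 calls, with 2 to 20 higher and 7 to 28 lower. With 1 CPM added, genes past 2-fold in both rounds numbered 7 higher, 8 lower and 0 opposite. Of 1360 values of 76 named genes, 1149 kept their direction and side of the threshold, 166 lost the call, 30 gained one and 15 changed sign. Those that changed sign had no call: *FLS1* was -0.27 with genotype alone and -0.28 in the 5 libraries without the block, *MBF1C* 0.53 and 0.51, and *PAP1* -0.17 and -0.19. *HSFA2* was -0.051 in the 5 libraries with the block and -0.040 in rounds 1 and 2 alone. Leaving out 1 library at a time gave -0.63 to 0.042 for *TT8*, -0.38 to 0.45 for *HSFA2*, -0.025 to 0.24 for *HSFA3*, -0.039 to 0.21 for *HSFA7A* and -0.085 to 5.70 for *PAP1*, which has 0 counts in N2. With 2 *MYB5* OE libraries and no *MYB5* OE library in round 3, a missing call does not show equal levels.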

Other observations

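Triterpene cluster genes of the root had a median log2 ratio of *TT2* OE to *MYB5* OE of 0.06. Of 8 tested, 0 were called and 2 were higher at an unadjusted p under 0.05, beside 0.162% and 2.14% of all genes tested. *MRN1*, the marneral synthase gene, had a log2 ratio of 0.82 (SE 0.26, adjusted p = 0.819), and against the same Col-0 libraries it stood at 2.20 in *TT2* OE (adjusted p = 0.00083) and at 1.37 in *MYB5* OE (adjusted p = 0.0994). Of 16 cold and osmotic stress genes, 13 had a log2 ratio below 0, with a median of -0.24. Below 0 were 14 of them in round 1 and 9 in round 2. Over all genes, 9799 of the 20380 tested were below 0. None of the 16 was called, and at the share of 0.162% over all genes such lists would usually hold none. *COR78*, which is induced by cold, drought and abscisic acid, had a log2 ratio of -0.59 (SE 0.14, adjusted p = 0.351). Phenylpropanoid and lignin genes, upstream of flavonoids, had a median of -0.07 with 0 of 18 called.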
